A study of Mus musculus with 12 samples.

Results

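Gfap, Vim, Nes and Synm encode the intermediate filament proteins of astrocytes and their precursors, and S100b, S100a6, Myoc and Thbs4 are genes known from fibrous, subpial or otherwise filament-rich astrocytes. These 8 genes were chosen by symbol, out of 55401 genes in the count table, and were followed through 12 RNA-seq libraries. All 8 were found, and all 8 passed the filter on low counts that left 12613 genes for testing. Myoc passed it through the hippocampus CD51+ libraries alone, and Nes through CD51- libraries alone.

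The libraries were made from astrocytes isolated by flow cytometry from mice with both CD51-Flp and the reporter Rosa-CAG-FSF-tdTomato, in which Flp under control of CD51 (integrin alpha-v) switches on tdTomato. The groups were cortex CD51+, cortex CD51-, hippocampus CD51+ and hippocampus CD51-, with 3 libraries in each. CD51+ cells carried tdTomato and GFP, CD51- cells carried GFP without tdTomato, and the driver of GFP, the animals' age and their number are not stated in the labels. The comparison asks how astrocytes that differ in CD51 differ in these genes, in each region. Library names read G where the titles say CD51+ and GT where they say CD51-. If GT stands for GFP with tdTomato, the classes are swapped and each CD51 difference below has the opposite sign. Whether the replicates of a group are different animals is not stated, so a p-value here reflects the spread among libraries, which may be technical.

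Astrocytes build a filament network of glial fibrillary acidic protein (Gfap) and vimentin, into which synemin and, in precursors and some reactive cells, nestin assemble. Fibrous astrocytes of white matter and the glia limitans, and hippocampal astrocytes, are known for abundant Gfap, whereas most protoplasmic astrocytes of the cortical grey matter hold little. S100b is a calcium-binding protein of most astrocytes, S100a6 a relative found in subsets of them, Myoc a secreted glycoprotein of the glia limitans and Thbs4 a secreted thrombospondin.

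Total counts ran from 4.35 to 12.85 in 1e6 read pairs per library. Mitochondrial genes took 36.5% to 71.1% (CD51+) and 22.5% to 38.6% (CD51-) of the cortical counts, and 49.9% to 53.3% (CD51+) and 20.2% to 29.4% (CD51-) of the hippocampal ones. The library cortex CD51+ replicate 3 stood apart, with the largest total, 71.1% mitochondrial counts and a TMM scaling factor of 0.384. Levels are given as CPM, counts per 1e6 after TMM scaling. A list of 20 general astrocyte genes (Slc1a2, Sparcl1 and others) summed to 75546 to 99221 CPM in cortex CD51+ against 6682 to 17763 in cortex CD51-, and to 59352 to 77006 in hippocampus CD51+ against 16895 to 19744 in hippocampus CD51-. All 20 had counts in every group, so both classes held astrocyte RNA, but of 14 microglial genes the sum was 340 to 1019 CPM in cortex CD51+ against 8665 to 12064 in cortex CD51-, and 207 to 1719 CPM in hippocampus CD51+ against 5625 to 8367 in hippocampus CD51-. The sum of 13 oligodendrocyte genes was 2721 to 2861 CPM in cortex CD51+ against 33247 to 64022 in cortex CD51-, and 1257 to 5014 CPM in hippocampus CD51+ against 6918 to 38067 in hippocampus CD51-. These sums move with CD51 class in both regions, and the part of such cells in the differences of the 8 genes was not tested. The ratio to the general astrocyte list given below cannot test it, since RNA from other cells stays in the gene's own level. In bulk libraries such as these, fewer cells of a type and less RNA per cell cannot be told apart.

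Gfap (ENSMUSG00000020932.14) lies on chromosome 11 at 102887336 to 102900912 (mm10, minus strand), with 4218 bases of exon. Its level in cortex was 11.8, 30.7 and 238 CPM in the CD51+ libraries against 7.51, 0.24 and 1.31 CPM in the CD51- libraries. Replicate 3 held most of the CD51+ signal in cortex, and every CD51+ library lay above every CD51- library. In hippocampus it reached 210.1, 366 and 289 CPM in CD51+ against 26.4, 154 and 74.4 CPM in CD51-, again without overlap. Gfap rose in CD51+ cells in cortex, by 4.93 ± 1.19 on the log2 scale (SE, edgeR quasi-likelihood test, adjusted p = 0.00983). In hippocampus the difference was 1.76 ± 1.04 and did not pass the threshold of 0.05 (adjusted p = 0.393). Averaged over both regions it rose by 3.34 ± 0.78 (adjusted p = 0.00419). The difference between the 2 regional effects, hippocampus minus cortex, was -3.17 ± 1.46 (edgeR adjusted p = 0.374), so the smaller hippocampal value was not shown to differ. Without cortex CD51+ replicate 3 the cortical difference was 2.93 with an adjusted p of 0.0842, and the cortical call was lost.

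Nes (ENSMUSG00000004891.16), the gene of nestin, a filament protein of neural stem cells that endothelial cells and pericytes also make, lies on chromosome 3 at 87971078 to 87980451 (mm10, plus strand). It went the opposite way. No count was found in the 3 cortex CD51+ libraries, which allows up to 0.161 CPM over that group (3 counts, counting error only), against 17.4, 0.479 and 1.02 CPM in cortex CD51-. The hippocampus held 0.229, 0.939 and 0 CPM in CD51+ against 33.8, 33.4 and 6.16 CPM in CD51-. In both regions the classes did not overlap, and over all libraries 8 counts in CD51+ stood against 1057 in CD51-. From the pooled counts Nes was at least 49.9-fold lower in cortex CD51+ and 54.9-fold lower in hippocampus CD51+ (95% counting interval 27.8 to 128). Cortex CD51- replicate 1 held 206 of the 217 cortical counts, and without it the cortical bound was 4.51-fold, as it was 29.1-fold without cortex CD51+ replicate 2. The hippocampal ratio was 255 without CD51+ replicate 2, which held 7 of the 8 counts (95% counting interval 45.7 to 10095), and 36.5 without CD51+ replicate 3. Nes passed the low-count filter through CD51- libraries alone, where it was high. It fell in CD51+ cells over both regions averaged (adjusted p = 0.00951), while neither region alone passed (adjusted p = 0.0551 in cortex and 0.181 in hippocampus). Without cortex CD51- replicate 3 the cortical adjusted p was 0.0434.

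Because Gfap and Nes are the filament genes that passed the averaged test in opposite directions, 220 bases upstream of each RefSeq start (from 250 to 31 bases before it, GRCm38.p6, the assembly of mm10) are shown, 5′ to 3′ on the gene's strand. The Gfap window is chr11:102897231-102897450 on the minus strand, inside the GENCODE gene span but outside its exons, and the Nes window is chr3:87970843-87971062 on the plus strand. Capitals mark matches on either strand to 4 motifs that do not overlap here. They are TATAAA (the TATA box), the element CCAAT that several factors bind, the Sp1 box with the letters GGGCGG, and the STAT palindrome TTCNNNGAA.
Gfap: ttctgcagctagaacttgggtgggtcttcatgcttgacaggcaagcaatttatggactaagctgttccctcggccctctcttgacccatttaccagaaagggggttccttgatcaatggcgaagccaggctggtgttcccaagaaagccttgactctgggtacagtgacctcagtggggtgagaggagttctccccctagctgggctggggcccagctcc
Nes: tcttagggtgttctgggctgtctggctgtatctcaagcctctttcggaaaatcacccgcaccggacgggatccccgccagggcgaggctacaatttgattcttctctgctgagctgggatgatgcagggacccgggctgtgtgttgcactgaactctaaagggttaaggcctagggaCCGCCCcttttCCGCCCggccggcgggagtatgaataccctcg
The Nes window holds 2 matches to the Sp1 box, both on the opposite strand and starting 73 and 62 bases before the start, and the Gfap window has no match to any of the 4 motifs. Of 32851 promoters of the same length, 28.5% hold the Sp1 box, 31% the element CCAAT, 9.95% the letters TATAAA and 6.27% the STAT palindrome. These windows end 31 bases before the start and leave out the stretch nearest to it, where a TATA box usually lies. They cannot show whether a promoter has a TATA box.

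Vim (ENSMUSG00000026728.9, chromosome 2, 13573927 to 13582826) encodes vimentin, the filament partner of Gfap that microglia, endothelium and other cells also make. Its cortical level was 19.6, 49.9 and 9.74 CPM in CD51+ against 27.9, 37.1 and 0.438 CPM in CD51-. Hippocampal libraries held 15.1, 32.9 and 98.3 CPM in CD51+ against 45.8, 86.1 and 52.5 CPM in CD51-. The classes overlapped in both regions, and the averaged difference was -0.03 ± 0.85 on the log2 scale (adjusted p = 0.9999), 0.13 with upper-quartile scaling, so no direction was fixed.

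Synm (ENSMUSG00000030554.16, chromosome 7, 67730160 to 67759742) encodes synemin, which assembles with vimentin and Gfap. Its exons overlap Ttc23 and Gm45102 on the opposite strand, and counting ignored strand, so part of its counts could come from either. Cortex held 3.36, 0.385 and 0.203 CPM in CD51+ against 7.59, 3.71 and 4.08 CPM in CD51-, with every CD51+ library below. The hippocampal values were 19.3, 0.671 and 3.69 CPM in CD51+ against 44.8, 7.34 and 0.634 CPM in CD51-, and these overlapped. The averaged difference was -1.56 ± 1.38 (adjusted p = 0.457).

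S100b (ENSMUSG00000033208.7, chromosome 10, 76253853 to 76261159) varied least within a group, by at most 2.76-fold between libraries. Cortex held 118, 278 and 327 CPM in CD51+ against 105, 86.5 and 162 CPM in CD51-, with an overlap of 1 CD51+ library. The hippocampal values were 239, 228 and 478 CPM in CD51+ against 101, 120.2 and 104 CPM in CD51-, with no overlap. S100b rose in CD51+ cells over both regions averaged, by 1.29 ± 0.45 on the log2 scale (adjusted p = 0.0398), and passed in neither region alone (1.03 ± 0.63, adjusted p = 0.268 in cortex, and 1.54 ± 0.63, adjusted p = 0.177 in hippocampus). That call lies close to the threshold. It was kept without cortex CD51+ replicate 1 or cortex CD51- replicate 3 and lost without any other single library (cortex CD51+ replicates 2 and 3, cortex CD51- replicates 1 and 2, and all 6 hippocampal libraries), with adjusted p from 0.0581 to 0.148 in those fits.

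S100a6 (ENSMUSG00000001025.8, chromosome 3, 90612882 to 90624181) encodes calcyclin. In cortex it stood at 1.34, 71.4 and 2.23 CPM in CD51+ against 0.0844, 0.359 and 0 CPM in CD51-, with 557 of the 576 CD51+ counts in replicate 2 and no overlap. In hippocampus the values were 1.61, 11.5 and 9.21 CPM in CD51+ against 3.86, 0.279 and 2.08 CPM in CD51-, which overlapped. S100a6 rose in CD51+ over both regions averaged, by 4.55 ± 1.56 (adjusted p = 0.0379), with 7.25 ± 2.50 in cortex (adjusted p = 0.0595) and 1.84 ± 1.95 in hippocampus (adjusted p = 0.711). Without cortex CD51+ replicate 2 the averaged value was 2.65 with an adjusted p of 0.297. The call was also lost without cortex CD51- replicates 1 or 3, hippocampus CD51+ replicates 2 or 3 or any hippocampus CD51- library, at adjusted p from 0.0549 to 0.0828.

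Myoc (ENSMUSG00000026697.10, chromosome 1, 162639155 to 162649693) encodes myocilin, and its exons overlap Myocos on the opposite strand. It had no count in any of the 6 cortical libraries, which allows up to 0.161 CPM in CD51+ and 0.111 CPM in CD51-. In hippocampus it reached 18.1, 59.0 and 1.68 CPM in CD51+ against 0, 0.372 and 0 CPM in CD51-. Those are 529 counts in CD51+ against 4 in CD51-, a ratio of 253 from the pooled counts (95% counting interval 98.1 to 931), and the classes did not overlap. CD51+ replicate 2 held 440 of the 529 counts, and the ratio was 73.2 without it and 162 without CD51- replicate 1. The fitted difference was 7.57 ± 2.80 and did not pass (adjusted p = 0.144), with a 35.2-fold range among the CD51+ libraries.

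Thbs4 (ENSMUSG00000021702.7, chromosome 13, 92751590 to 92794818) varied widely between libraries of the same group. Cortex held 0.504, 12.3 and 10.96 CPM in CD51+ against 44.8, 0.839 and 0.146 CPM in CD51-, where replicate 1 carried 531 of 539 counts. The hippocampal values were 105, 14.4 and 176 CPM in CD51+ against 11.8, 67.2 and 43.6 CPM in CD51-. Both regions overlapped, and the differences were -0.95 ± 1.44 in cortex (adjusted p = 0.708) and 1.27 ± 1.45 in hippocampus (adjusted p = 0.734). Without cortex CD51- replicate 1 the cortical difference was 3.96 (adjusted p = 0.125), with no call.

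**Figure D1:**
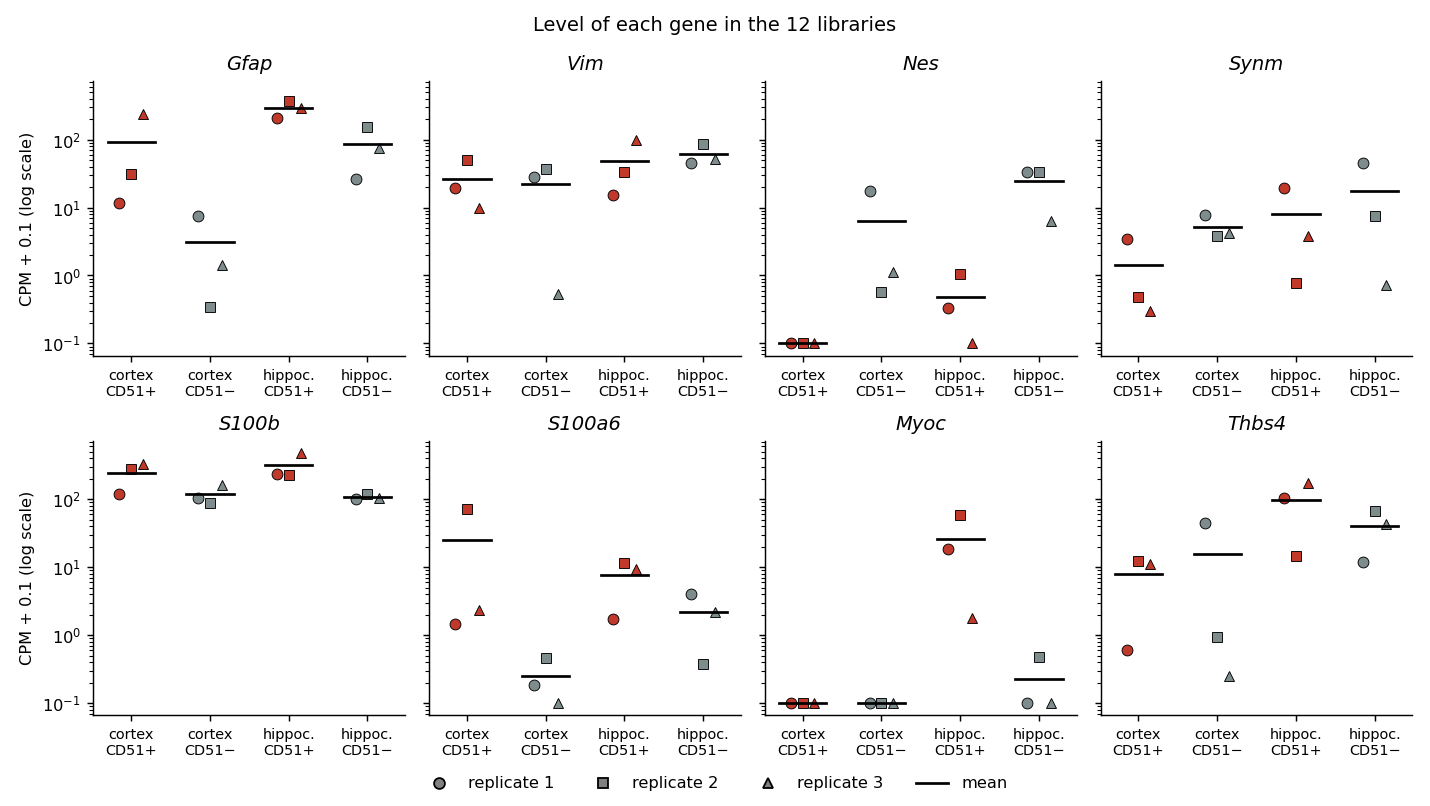
Level of each of the 8 genes in the 12 libraries, in CPM plus 0.1 on a log axis, with CD51+ in red and CD51- in grey within each region, symbols for replicates and bars at the group means. Gfap in CD51+ lies above CD51- in both regions, from 11.8 CPM up in cortex and 210.1 CPM up in hippocampus, while Nes lies at or under 0.939 CPM in CD51+ and Myoc is at 0 in cortex.

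Over the 8 genes, 1 was called in cortex (Gfap, higher), against 11.3% of the 12613 genes tested, and 0 in hippocampus, against 3.31%. Myoc is left out of the counts by other rules that follow, because it passed the filter only through the group where it was high. Nes is kept in all counts, although it passed the filter only through libraries of the class where it was high. Its place in the CD51 counts therefore rests partly on the difference being counted. Of the other 7, the hippocampal count at an unadjusted edgeR p under 0.05 was 2 (Nes and S100b), against 19.1% of all genes. At an adjusted p under 0.05 in hippocampus, DESeq2 called 0 of the 7, against 11.3%, but it gave no adjusted p for Nes. At the same threshold limma-voom called 1 (Nes), against 7.02%. Averaged over the regions 4 of the 8 were called, against 22.7% of all genes. Gfap, S100b and S100a6 were higher, a direction taken by 8.87% of all genes, and Nes was lower, as were 13.9%. The libraries of the 2 classes did not overlap for 4 of the 8 in cortex (Gfap, S100a6, Nes and Synm), against 31.7% of all genes, and for 3 of the 7 without Myoc in hippocampus (Gfap, S100b and Nes), against 27.1%. For the interaction 0 of the 8 and 0% of all genes were called by edgeR. Of the 7 without Myoc, 1 had an unadjusted edgeR p under 0.05 for the interaction (Gfap), against 12.6% of all genes, while DESeq2 called 0 of them, against 4.14%, and limma-voom 0, against 0%.

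**Figure D2:**
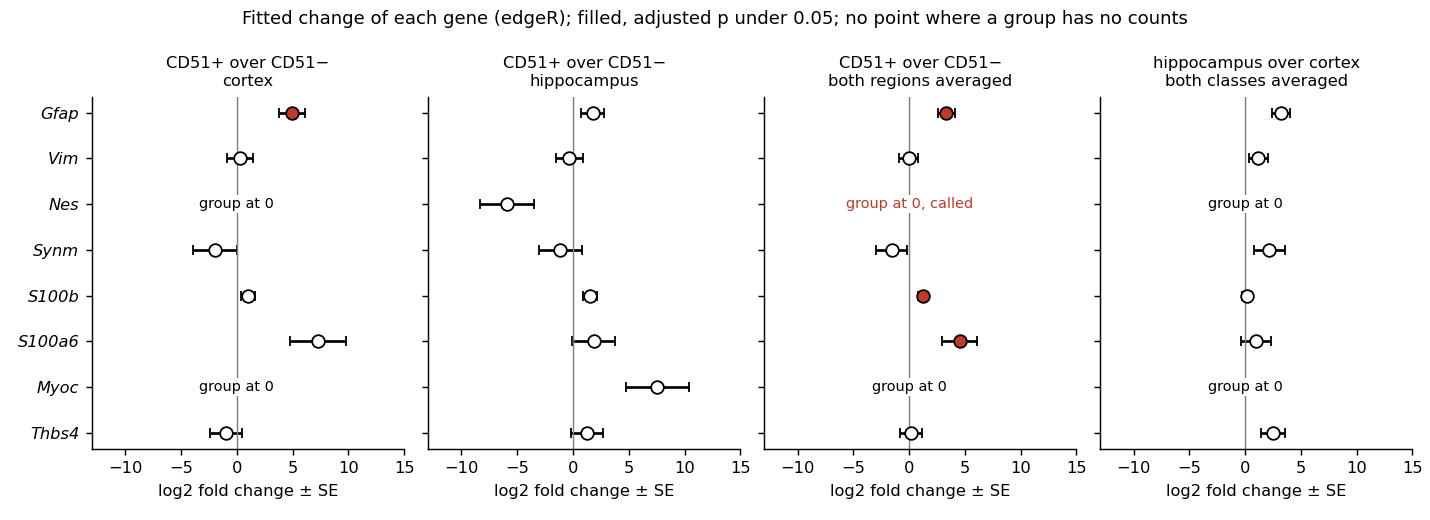
Fitted log2 fold changes with SE (edgeR, all 12 libraries in 1 fit) for CD51+ over CD51- in cortex, in hippocampus and averaged, and for hippocampus over cortex. Filled points passed an adjusted p of 0.05: Gfap in cortex at 4.93 and, in the average, Gfap at 3.34, S100b at 1.29 and S100a6 at 4.55, while no point is drawn where a group has no counts.

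Between regions, the filament genes, S100b, Myoc and Thbs4 had their highest group mean in hippocampus. Only S100a6 had its highest group mean in cortex, in the CD51+ libraries. Gfap averaged 288 ± 77.7 CPM in hippocampus CD51+ against 93.4 ± 125 CPM in cortex CD51+, and 85.1 ± 64.7 CPM in hippocampus CD51- against 3.02 ± 3.92 CPM in cortex CD51- (SD, n = 3 each). The CD51- libraries of the 2 regions did not overlap, at a difference of 4.79 ± 1.19 (edgeR adjusted p = 0.125), and the CD51+ libraries did, at 1.63 ± 1.03 (adjusted p = 0.592). Averaged over the classes, Gfap was 3.21 ± 0.78 higher in hippocampus on the log2 scale (edgeR adjusted p = 0.0746), which did not pass, and the value fell below the threshold without cortex CD51+ replicate 3 (0.0330), cortex CD51- replicate 1 (0.0185), hippocampus CD51- replicate 1 (0.0386) or hippocampus CD51- replicate 3 (0.0497). It also passed with no filter (adjusted p = 0.000677), with robust dispersion (adjusted p = 0.0400) and with DESeq2 (adjusted p = 0.0025). Thbs4 in CD51+ was 14.4 to 176 CPM in hippocampus against 0.504 to 12.3 CPM in cortex, without overlap (3.63 ± 1.58, adjusted p = 0.369). Myoc in CD51+ was at least 185-fold higher in hippocampus than in cortex by pooled counts, with a fitted adjusted p of 0.308. That bound was 53.7-fold without hippocampus CD51+ replicate 2 and 108-fold without cortex CD51+ replicate 2. S100b differed between the regions by 0.13 ± 0.44 averaged over the classes, by 0.38 ± 0.62 in CD51+ and by -0.12 ± 0.62 in CD51-.

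Between regions edgeR called none of the 8 genes. In CD51+ cells 0 of the 8 were called, against 0.0396% of all genes. Of the 7 without Myoc, 1 had an unadjusted edgeR p under 0.05 there (Thbs4), against 11.8% of all genes, while DESeq2 called 0, against 3.89%, and limma-voom 0, against 0.0159%. In CD51- cells 0 of the 8 and 0% of all genes were called. Gfap was the 1 of the 7 with an unadjusted edgeR p under 0.05, against 13.2% of all genes, and the 1 that DESeq2 called, against 5.45%, while limma-voom called 0, against 0.864%. Averaged over classes, 0 of the 8 were called, against 0.19% of all genes. Of the 7, 3 had an unadjusted edgeR p under 0.05 (Gfap, Nes and Thbs4), against 15.1%, DESeq2 called 1 (Gfap), against 5.8%, and limma-voom 0, against 0.42%. DESeq2 gave no adjusted p for Nes in CD51- cells or averaged over classes. Markers of ependyma and choroid plexus moved with region: their 10 genes summed to 467 to 2077 CPM in hippocampus CD51+ against 25.6 to 117 CPM in cortex CD51+, and to 1265 to 5748 CPM in hippocampus CD51- against 58.4 to 457 CPM in cortex CD51-. In cortex CD51+ 7 of those 10 were at 0 (Ccdc153, Dynlrb2, Folr1, Kl, Otx2, Tekt1 and Tmem212), in hippocampus CD51+ only Dynlrb2. The part of such cells in the regional differences was not tested.

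Ordered by mean CPM per kilobase of exon, S100b came first of the 8 in every group, at 163 ± 73.6 in CD51+ against 79.4 ± 26.7 in CD51- from cortex, and at 212 ± 95 in CD51+ against 73.0 ± 7.01 in CD51- from hippocampus (SD, n = 3 each). Gfap followed in cortex CD51+ (22.1 ± 29.7), hippocampus CD51+ (68.3 ± 18.4) and hippocampus CD51- (20.2 ± 15.3), and came 5th in cortex CD51-, at 0.716 ± 0.930 per kilobase. Its place among the low genes of that group is within their SDs. Nes stood at 0.0607 ± 0.0763 per kilobase in hippocampus CD51+, the last of the 8 there, against 3.81 ± 2.47 in hippocampus CD51-.

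The levels were also set against the astrocyte RNA of the same library. Per 1000 CPM of the 20 general astrocyte genes, Gfap stood at 0.156, 0.351 and 2.40 in cortex CD51+ against 1.12, 0.0339 and 0.0739 in cortex CD51-. It stood at 3.54, 4.75 and 4.11 in hippocampus CD51+ against 1.52, 7.82 and 4.41 in hippocampus CD51-. The classes overlapped in both regions, with a difference of 0.63 on the log2 scale (exact two-sided permutation within regions, p = 0.465), and the hippocampal libraries of both classes, at 1.52 and above, lay above 5 of the 6 cortical ones. S100b per 1000 was 1.57, 3.19 and 3.30 in cortex CD51+ against 15.7, 12.3 and 9.14 in cortex CD51-, and 4.02, 2.97 and 6.79 in hippocampus CD51+ against 5.80, 6.09 and 6.16 in hippocampus CD51-. This ratio was lower in CD51+ by -1.36 on the log2 scale (exact p = 0.02), the opposite sign of the CPM difference. The microglial and oligodendrocyte sums given above were higher in CD51-, and the part of such cells in the S100b ratio was not tested.

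The ratio of Nes was also lower in CD51+, by -6.16 (exact p = 0.005, the smallest that 400 arrangements can give). That of Synm was lower by -3.91 (exact p = 0.01): it ran from 0.00205 to 0.0445 in cortex CD51+ against 0.230 to 1.14 in cortex CD51-, and from 0.00871 to 0.325 in hippocampus CD51+ against 0.0375 to 2.58 in hippocampus CD51-. For Vim the difference was -2.35 (exact p = 0.075), for Thbs4 -1.76 (p = 0.235, exact) and for S100a6 -0.02 (p = 0.975, exact). No ratio test is given for Myoc, which had no count in cortex. Its computed cortical difference was still -3.20, from the added 0.5 CPM and the general astrocyte list alone. The Nes and Synm ratios hold the same part, with 0 counts of Nes in cortex CD51+ and Synm at 3.36, 0.385 and 0.203 CPM there. How much of the Nes and Synm differences that part makes up was not tested. The sums of the general astrocyte list did not overlap between the classes in either region. A gene without any count would therefore also be lower in CD51+ by this ratio, at the smallest exact p of 0.005. The exact p of Nes and Synm thus cannot show by itself that these genes differ beyond the list. The 7 tests given, of 8 computed, are unadjusted, on log2 values with 0.5 CPM added, and the general astrocyte list in the ratio itself rose in CD51+, with 19 of its 20 genes called in the averaged comparison.

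**Figure D3:**
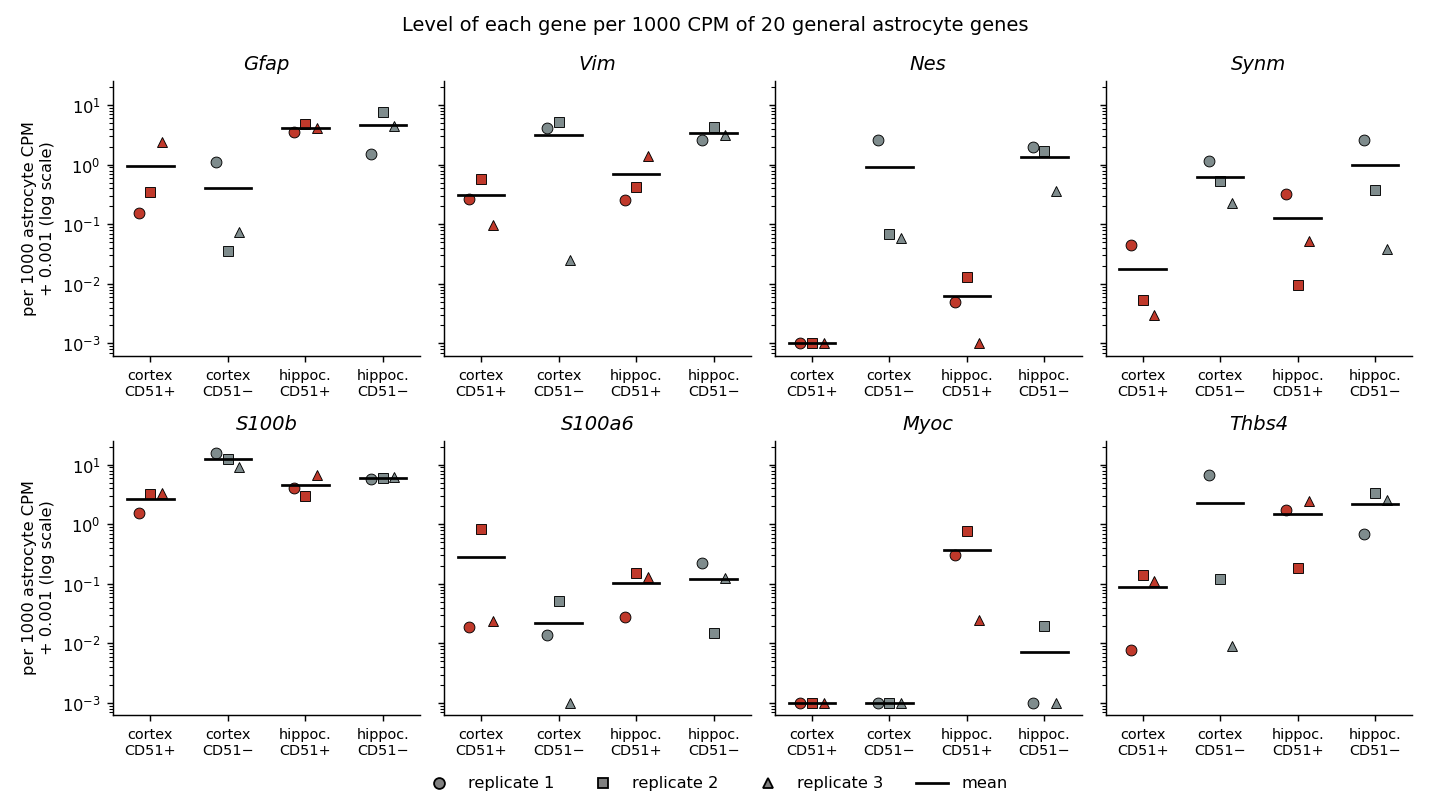
Each gene's CPM per 1000 CPM of the 20 general astrocyte genes in the same library, plus 0.001, on a log axis, by group, with symbols for replicates and bars at the means. For Gfap the CD51+ and CD51- points overlap in both regions, for S100b every cortex CD51+ point (1.57 to 3.30) lies below every cortex CD51- point (9.14 to 15.7), and for Nes CD51+ lies below CD51- in both regions.

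Cells other than astrocytes also make some of these genes. For Nes, 12 endothelial genes summed to 1.03 to 12.99 CPM in cortex CD51+ against 18.6 to 34.5 CPM in cortex CD51-, and to 1.01 to 54.1 CPM in hippocampus CD51+ against 15.8 to 66.5 CPM in hippocampus CD51-. The defining endothelial gene Cldn5 was at 0 in all 4 groups, Cdh5 at 0 in both cortical groups, and 8 of the 12 were at 0 in hippocampus CD51+ against 2 in hippocampus CD51-. Pecam1, an endothelial adhesion gene that macrophages also express, fell in CD51+ (adjusted p = 0.0156). The 11 pericyte genes showed no such order, at 23.2 to 71.2 CPM in cortex CD51+ against 4.31 to 72.9 CPM in cortex CD51-, and 33.3 to 58.3 CPM in hippocampus CD51+ against 8.87 to 234 CPM in hippocampus CD51-, with Kcnj8 and Tagln at 0 in all 4 groups. The 10 genes of neural stem and dividing cells summed to 294 to 827 CPM in cortex CD51+ against 175 to 342 CPM in cortex CD51-. In hippocampus they summed to 136 to 301 CPM in CD51+ against 122 to 423 CPM in CD51-. Of these 10 genes 9 were tested. In the averaged comparison 1 was higher, against 8.87% of all genes, and 3 were lower, against 13.9%. The proliferation genes Mki67 (0 counts in both CD51+ groups, against 83 in cortex CD51- and 260 in hippocampus CD51-, adjusted p = 0.0119) and Top2a (adjusted p = 0.0392) fell in CD51+. Lpar1 also fell (-2.77 ± 0.96, adjusted p = 0.0402), and Egfr rose by 2.49 ± 0.52 (adjusted p = 0.00160). The part of any of these cells in the Nes difference was not tested.

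Of 18 other intermediate filament and plakin genes 10 could be tested. In the averaged comparison 0 of the 10 were higher, against 8.87% of all genes, and 1 was lower, against 13.9%. The lower gene was Lmna, the nuclear lamin A gene (adjusted p = 0.0128). It had 3 counts in cortex CD51+ against 1218 in cortex CD51-, where libraries ran from 3.46 to 134.8 CPM (48.6 ± 74.7). In hippocampus Lmna stood at 8.67 ± 7.61 CPM in CD51+ against 23.1 ± 31.0 CPM in CD51-. The median of the 10 tested genes was -0.36 on the log2 scale, or 0.18 with 4 genes that had a group without counts set at their bound, against -0.14 over all 12613 genes. Plec, the gene of plectin that links filaments to other structures, averaged 31.4 ± 14.8 CPM in cortex CD51+ against 4.61 ± 6.62 CPM in cortex CD51- and did not pass (2.57 ± 1.02, adjusted p = 0.072). Nefl, a neurofilament gene, did not pass either (adjusted p = 0.0574).

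Of 13 other S100 genes 4 were tested, with a median of 0.97 in the averaged comparison against -0.14 over all genes. There edgeR called 0 of the 4, against 22.7% of all genes (0 at an unadjusted p under 0.05). S100a1 stood at 79.4 ± 62.7 CPM in cortex CD51+ against 95.5 ± 119 CPM in cortex CD51- (-0.20 ± 0.77 in the average, adjusted p = 0.898), and S100a16 at 17.2 ± 9.85 CPM in cortex CD51+ against 1.04 ± 1.51 CPM in cortex CD51- (2.12 ± 1.24, adjusted p = 0.235). Of 4 other thrombospondins 2 were tested. Thbs3 fell in CD51+ (0 counts in cortex CD51+ against 137 in cortex CD51-, and 5 in hippocampus CD51+ against 304 in hippocampus CD51-, adjusted p = 0.0219). Thbs1, a synapse-forming thrombospondin, had 1 count in cortex CD51+ against 663 in cortex CD51- (adjusted p = 0.0788 in the average). Those cortex CD51- libraries ran from 0 to 50.8 CPM, and Thbs1 in hippocampus stood at 5.58 ± 9.67 CPM in CD51+ against 11.3 ± 7.63 CPM in CD51-.

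Of 21 other genes known from fibrous, subpial or reactive astrocytes, 18 were tested. In the averaged comparison 7 were higher (Aqp4, Fam107a, Id4, Igfbp2, Mt1, Mt2 and Serpina3n), against 8.87% of all genes, and 0 lower, against 13.9%. In cortex 6 were higher, against 11.3% of all genes called in either direction, and in hippocampus 0, against 3.31%. The averaged median of the 18 was 1.27, or 1.32 with 3 genes at their bound, against -0.14 over all genes and 2.51 over the 20 general astrocyte genes. Aqp4, the water channel of astrocyte endfeet, averaged 2176 ± 261 CPM in cortex CD51+ against 246 ± 148 CPM in cortex CD51-, and 1737 ± 513 CPM in hippocampus CD51+ against 503 ± 230.2 CPM in hippocampus CD51- (2.47 ± 0.37, adjusted p = 5.83e-05). Id4, an inhibitor of helix-loop-helix factors, rose by 2.24 ± 0.47 (adjusted p = 0.0018) and Fam107a, an actin-associated gene of astrocytes, by 1.85 ± 0.39 (adjusted p = 0.00182). Serpina3n, a secreted protease inhibitor of reactive astrocytes, was at 28.1 ± 13.1 CPM in cortex CD51+ against 0 counts in cortex CD51-, and at 7.44 ± 8.72 CPM in hippocampus CD51+ against 1.88 ± 1.55 CPM in hippocampus CD51- (adjusted p = 0.00827).

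Signalling and transcription factors known to act on Gfap split in direction. Gfap transcription is known to be switched on by gp130 cytokines through Jak and Stat3, a route that Socs3 inhibits, and by nuclear factor I proteins and BMP signalling. Of 20 such genes 18 were tested, with a median of 0.51 in the averaged comparison against -0.14 over all genes. There 5 were higher (Bmpr1b, Cntfr, Nfia, Nfib and Sox9), against 8.87% of all genes, and 2 lower (Socs3 and Stat3), against 13.9%. In cortex 3 were higher and 1 lower, against 11.3% of all genes called in either direction, and in hippocampus 0, against 3.31%. Nfia averaged 595 ± 219 CPM in cortex CD51+ against 132 ± 29.1 CPM in cortex CD51-, and 591 ± 144 CPM in hippocampus CD51+ against 226 ± 64.3 CPM in hippocampus CD51- (1.78 ± 0.39, adjusted p = 0.00249). Nfib rose by 2.09 ± 0.51 (adjusted p = 0.0057) and Cntfr, the receptor chain for ciliary neurotrophic factor, by 2.13 ± 0.61 (adjusted p = 0.0156). Socs3 had 2 counts in cortex CD51+ against 2065 in cortex CD51-, and 57 in hippocampus CD51+ against 2021 in hippocampus CD51- (adjusted p = 0.000138). Socs3 is also made by microglia and endothelium, and the microglial sum given above moved the same way. The part of these cells in the Socs3 difference was not tested.

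Of 12 kinases, proteases and other genes of filament turnover 10 were tested, with a median of -0.09 in the averaged comparison. There 2 were higher, against 8.87% of all genes, and 0 lower, against 13.9%. Capn2, a calcium-dependent protease that cleaves filament proteins, averaged 258 ± 87.8 CPM in cortex CD51+ against 7.25 ± 6.63 CPM in cortex CD51-, and 182 ± 56.6 CPM in hippocampus CD51+ against 89.0 ± 43.2 CPM in hippocampus CD51- (3.09 ± 0.59, adjusted p = 0.000663). Trim32, a ubiquitin ligase, had 117 counts in cortex CD51+ against 0 in cortex CD51- (adjusted p = 0.015 in the average). Rock2, a kinase that phosphorylates Gfap and vimentin, did not pass (-1.01 ± 0.42, adjusted p = 0.0822), nor did the protease gene Capn1 (adjusted p = 0.118).

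**Figure D4:**
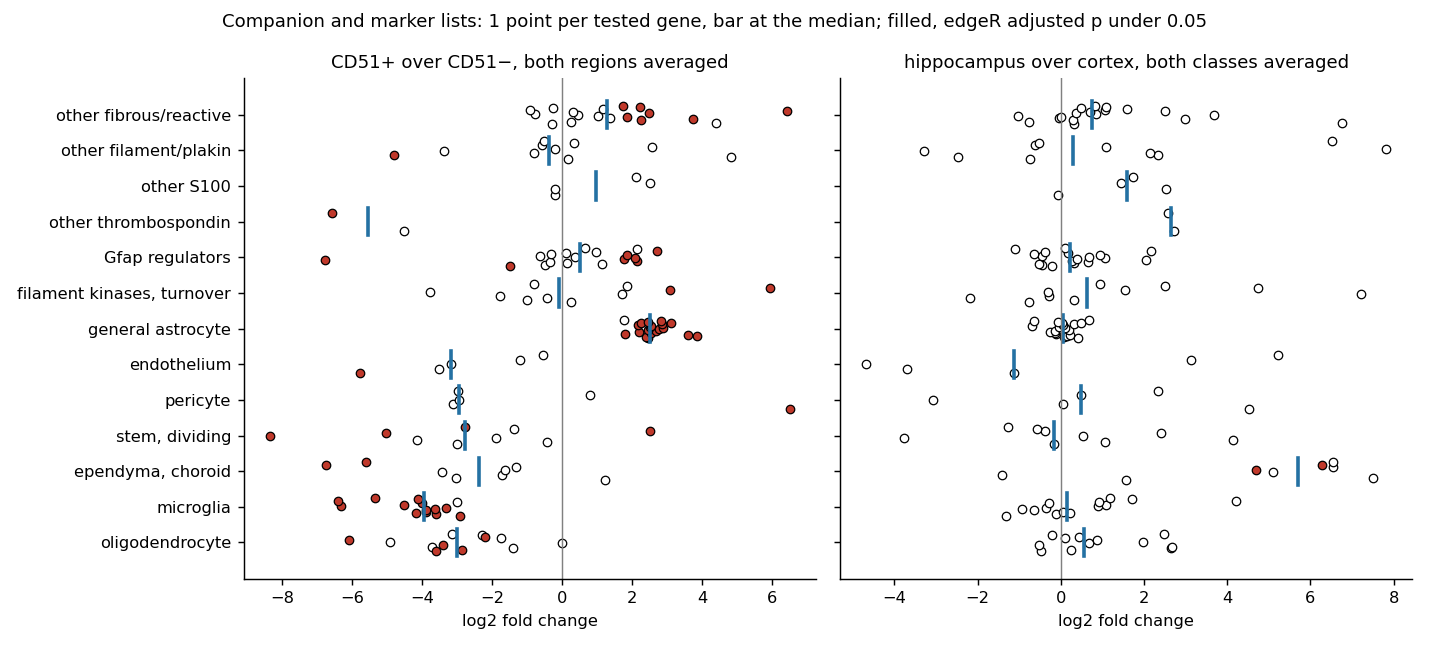
Fitted log2 fold change of every tested gene in the companion and marker lists, for CD51+ over CD51- and for hippocampus over cortex, with a bar at each list's median and filled points for an adjusted p under 0.05. The general astrocyte genes centre on 2.51 and the other fibrous or reactive genes on 1.27 for CD51+ over CD51-, and 2 ependymal or choroid genes passed for hippocampus over cortex.

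The genes whose pattern over the 12 libraries was most like that of each member were found by the root mean square difference of centred log2(CPM + 1) values, among 2239 genes that averaged at least 50 CPM. For Gfap these were Bmpr1b (1.45), Ston2 (1.47), Unc13b (1.53), Fat1 (1.53) and Hsd11b1 (1.53), against a median of 2.87 over all candidates. Bmpr1b, a BMP receptor gene, stood at 107, 70.3 and 305 CPM in cortex CD51+ against 1.35, 0 and 20.9 CPM in cortex CD51-, and at 279, 226 and 149 CPM in hippocampus CD51+ against 57.6, 208 and 64.8 CPM in hippocampus CD51-. Closest to S100b was Selenot (0.375), an endoplasmic reticulum selenoprotein gene, at 94.7, 258 and 245 CPM in cortex CD51+ against 39.0, 55.2 and 114 CPM in cortex CD51-, with Lrrc58 and Kif1b next (0.42 each). Nes had Ftl1 (1.27), the gene of ferritin light chain, as its closest, at 10.5 to 18.6 CPM in cortex CD51+ against 69.6 to 442 CPM in cortex CD51-. The closest to Vim was Cyb5b (0.866), to Synm Dnajb4 (1.10), to S100a6 Hsbp1 (0.953), to Myoc Mbd2 (1.26) and to Thbs4 Unc13b (1.39). All these libraries share the differences in depth and cell markers given above.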

How the data were processed

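RNA was measured in 12 libraries of 4 groups taken from the sample titles. Per the file headers, the authors deposited raw counts, made with featureCounts 2.0.4 over exons of GENCODE vM25, as read pairs, without strand, primary alignments only. Per the submitters' processing notes, STAR, mm10 and DESeq2 1.40.2 were used. Symbols were found for 55141 of 55401 gene IDs.

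Genes were tested with edgeR 4.0.16 (R 4.3.3) by its quasi-likelihood F test, with TMM factors, filterByExpr by group (minimum count 10, total 15), all libraries in 1 fit, Benjamini-Hochberg adjustment over 12613 genes at 0.05. Each SE is the absolute log2 fold change over the square root of F. Ratios of pooled counts use a floor of 3 counts over a group. The ratio to astrocyte RNA was tested by exact permutation within regions. The fits were tested on simulated data.

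Named were all 8 members, up to 4 genes of each list with the smallest p in the averaged comparison, and the 5 genes most like Gfap and 3 most like each other member. Further list members are named only as called, chosen after their values were seen. The members and lists were chosen with earlier results of these data known, and the comparison of regions averaged over classes was added after seeing the data. Promoter sequences are from RefSeq, with entries for all 8 members. Those of Vim and Synm overlap annotated exons and are not shown.

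The alternatives were DESeq2 1.42.0, voom of limma 3.58.1, RLE and upper-quartile factors, no filter, 1 CPM in 3 libraries, robust dispersion, a replicate block, only the groups compared, mitochondrial genes left out, and each library left out. Figures were drawn with matplotlib.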

Additional observations from a re-analysis of the deposited data

How the results depend on the processing

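The averaged Gfap rise kept its direction and its call in all 21 alternatives, from 2.34 to 4.33 on the log2 scale, with adjusted p from 3.47e-05 to 0.0224. The averaged Nes fall kept both in all 20 alternatives that gave an adjusted p, from 0.00366 to 0.0288, and DESeq2 gave none. The cortical Gfap rise was called in 19 of 22 and not with limma-voom (adjusted p = 0.0795), with only the groups compared (0.0591) or without cortex CD51+ replicate 3. The averaged rise was called in 11 of 21 for S100a6 and in 8 of 21 for S100b, with adjusted p up to 0.297 and 0.152. Upper-quartile scaling moved the median of all genes by 0.18 in the averaged comparison and by 0.23 in hippocampus, and by 0.10 for the interaction.

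For CD51+ against CD51- in cortex, 1428 genes were called, 3219 with DESeq2, 2164 with limma-voom, and from 879 to 1507 with 1 library left out. For CD51+ against CD51- in hippocampus, 418 genes were called, 636 with no filter, 1429 with DESeq2, 885 with limma-voom, and from 198 to 559 with 1 library left out. For hippocampus against cortex in CD51+, 5 genes were called, 97 with no filter, 20 with robust dispersion, 0 with the replicate block, 3 with only the groups compared, 491 with DESeq2, 2 with limma-voom, and from 2 to 35 with 1 library left out. For hippocampus against cortex in CD51-, 0 genes were called, 112 with no filter, 19 with robust dispersion, 688 with DESeq2, 109 with limma-voom, and from 0 to 68 with 1 library left out. For the interaction, 0 genes were called, 146 with no filter, 1 with robust dispersion, 522 with DESeq2, and from 0 to 42 with 1 library left out. For hippocampus against cortex averaged, 24 genes were called, 292 with no filter, 112 with robust dispersion, 731 with DESeq2, 53 with limma-voom, and from 11 to 69 with 1 library left out.

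These member counts include Myoc, which makes up 1 of the DESeq2 and limma-voom calls in hippocampus, and 1 of the DESeq2 calls in each comparison of regions in CD51+ and averaged. DESeq2 gave no adjusted p for Nes in cortex, in hippocampus, between regions in CD51- or in either average. For CD51+ against CD51- in cortex, 1 of the 8 members was called, 2 with robust dispersion, 2 with DESeq2, and from 0 to 2 with 1 library left out. With only the groups compared, 0 were called of the 5 members tested in that fit. For CD51+ against CD51- in hippocampus, 0 of the 8 members were called, 1 with DESeq2, 2 with limma-voom. For CD51+ against CD51- averaged, 4 of the 8 members were called, 2 with no filter, 2 with the replicate block, and from 2 to 4 with 1 library left out. For hippocampus against cortex in CD51+, 0 of the 8 members were called, 1 with DESeq2. For hippocampus against cortex in CD51-, 0 of the 8 members were called, 1 with no filter, 1 with DESeq2. For hippocampus against cortex averaged, 0 of the 8 members were called, 1 with no filter, 1 with robust dispersion, 2 with DESeq2, and from 0 to 1 with 1 library left out.

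The log2 fold changes that changed sign under an alternative had passed no test. They were Vim for CD51+ against CD51- averaged (-0.03, 0.13 with upper-quartile scaling, 0.063 with the replicate block, 0.34 with limma-voom, -0.53 to 0.22 with 1 library left out), Thbs4 for CD51+ against CD51- in cortex (-0.95, 0.95 with limma-voom, -1.56 to 3.96 with 1 library left out), Thbs4 for the interaction (2.22, -0.11 with limma-voom, -2.69 to 2.79 with 1 library left out), S100b for hippocampus against cortex averaged (0.13, -0.11 to 0.26 with 1 library left out). Others were Vim for CD51+ against CD51- in cortex (0.28, -0.57 to 0.85 with 1 library left out), Thbs4 for CD51+ against CD51- averaged (0.16, -0.18 to 2.61 with 1 library left out), S100a6 for hippocampus against cortex in CD51+ (-1.74, -2.30 to 2.06 with 1 library left out), Vim for the interaction (-0.61, -1.67 to 0.24 with 1 library left out). Others were S100b for hippocampus against cortex in CD51- (-0.12, -0.26 to 0.16 with 1 library left out), Vim for CD51+ against CD51- in hippocampus (-0.33, -1.36 to 0.092 with 1 library left out), Synm for the interaction (0.79, -1.05 to 2.94 with 1 library left out), Vim for hippocampus against cortex in CD51+ (0.88, -0.15 to 1.74 with 1 library left out). Others were S100b for hippocampus against cortex in CD51+ (0.38, -0.079 to 0.66 with 1 library left out), Synm for CD51+ against CD51- in hippocampus (-1.16, -3.01 to 0.98 with 1 library left out), Synm for hippocampus against cortex in CD51- (1.77, -0.37 to 2.29 with 1 library left out).

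The ratio to astrocyte RNA, CD51+ minus CD51- on the log2 scale, was for Gfap 0.63, -0.18 with 5 CPM added, and for Vim -2.35, -2.63 with 5 CPM added and -3.43 to -1.76 with 1 library left out, and for S100a6 -0.02, 0.12 against Slc1a3 alone, 0.022 against Gja1 alone and -0.85 to 0.42 with 1 library left out. The Vim ratio passed with 5 CPM added (exact permutation p = 0.02) and without cortex CD51- replicate 3 (exact permutation p = 0.005, the smallest possible there).

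Whether libraries with the same replicate number belong together is not stated. Over 18 pairs of the same number, deviations from the group means correlated at -0.052 to 0.026, and 3 of 12 libraries correlated best with their own number. With so wide a spread among libraries, such values cannot exclude a pairing. With the replicate block, 1260 genes were called in cortex, 435 in hippocampus and 2540 in the average. The averaged calls of S100b and S100a6 were lost with it (edgeR adjusted p = 0.0691 and 0.129). The biological coefficient of variation was 1.28 with 3 libraries a group, which limits what could be called, and the counts of 0 behind Nes and Myoc set upper limits of 0.111 to 0.161 CPM. The cause of the changes between settings was not tested.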

Other observations

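Among the marker lists, 13 of 14 microglial genes fell in CD51+ in the averaged comparison, with a median of -3.94 on the log2 scale, and 5 of the 12 oligodendrocyte genes tested fell, with a median of -3.00, against -0.14 over all 12613 genes. Of all genes 13.9% fell in that comparison. Pdgfrb, a receptor best known from pericytes, averaged 36.2 ± 16.1 CPM in cortex CD51+ against 0 counts in cortex CD51-, and 32.1 ± 2.72 CPM in hippocampus CD51+ against 9.06 ± 10.1 CPM in hippocampus CD51- (SD, n = 3 each; edgeR adjusted p = 0.00183). Of the 5 pericyte genes tested it was the only one called, and their median was -2.94, or -0.99995 with 3 genes that had a group without counts set at their bound. Map2, a microtubule-associated gene on the neuronal list, rose by 1.93 ± 0.46 (adjusted p = 0.0049), and the other 6 neuronal genes tested were not called. Of 7 precursor genes of oligodendrocytes and 10 fibroblast genes, 2 each were tested and 0 were called by edgeR, with 0 at an unadjusted p under 0.05.

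Kl, a membrane protein gene of choroid plexus, and Otx2, a transcription factor gene of the same tissue, fell in CD51+ in the averaged comparison (adjusted p = 0.000667 and 0.0224). Both had 0 counts in cortex CD51+ against 562 and 138 in cortex CD51-. In hippocampus Kl averaged 16.1 ± 14.3 CPM in CD51+ against 127 ± 105 CPM in CD51-. Ttr, the transthyretin gene, rose by 4.70 ± 0.74 in hippocampus over cortex (adjusted p = 0.00684).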
